A study of Mus musculus with 8 samples.

Results

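The acrosome is the secretory vesicle that caps the sperm nucleus, and the 10 genes described here encode proteins of its matrix and membranes or factors needed to build it. They are *Acr*, *Acrv1*, *Acrbp*, *Spaca1*, *Spaca3*, *Spaca4*, *Spaca7*, *Zpbp*, *Zpbp2* and *Spata16*, chosen by name and found through their Entrez identifiers among the 21058 genes of the deposited RNA-seq tables. Their levels in cell fractions enriched for pachytene spermatocytes were taken from 4 *Arid1a* WT and 4 *Arid1a* cKO libraries. The aim was to ask how acrosome transcripts stood when ARID1A was depleted. Such fractions also hold other cells, so the levels are those of the fraction. ARID1A is a putative DNA-binding subunit of a SWI/SNF chromatin remodeling complex. *Arid1a* cKO males were *Arid1a* fl/fl; *Stra8-Cre* Tg/0, and *Arid1a* WT males were *Arid1a* fl/fl or *Arid1a* fl/+. All were adults of a CD1 line carrying the floxed allele. *Stra8-Cre* is active from spermatogonia onward, and its excision was incomplete, so the *Arid1a* cKO fraction also held cells that kept ARID1A. Cells from the pooled testes of several males were separated by Sta-Put, a sedimentation through a BSA gradient at unit gravity, and mRNA libraries were made from frozen cell pellets.

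The acrosome forms from Golgi-derived vesicles that fuse on the nuclear surface of the round spermatid, the haploid cell that follows the meiotic divisions. A number of its proteins are encoded by transcripts that first accumulate in pachytene spermatocytes, before any acrosome is visible, while others are best known from spermatids. At fertilization the vesicle fuses with the sperm plasma membrane and releases its matrix, and the inner acrosomal membrane is exposed to the egg.

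Estimated counts summed to between 18308688 and 22044507 in the *Arid1a* WT libraries and to between 15850961 and 21626772 in the *Arid1a* cKO libraries. Levels are given as CPM, the count of a gene scaled to a common library size with TMM factors, and differences as log2 fold changes of *Arid1a* cKO over *Arid1a* WT with their standard error (SE). All 17643 genes with enough counts entered edgeR's quasi-likelihood test, and a gene is termed called where its p, adjusted by Benjamini-Hochberg, was at most 0.05. The call was common across the genome: 74.0% of tested genes were called, 36.5% as higher and 37.5% as lower in *Arid1a* cKO. *Arid1a* itself was at 105.0, 128.5, 121.0 and 98.8 CPM in *Arid1a* WT replicates 1 to 4 and at 76.4, 81.0, 82.9 and 78.3 CPM in the *Arid1a* cKO replicates. This is a log2 fold change of -0.51 (SE 0.07, edgeR adjusted p = 2.31e-05), so part of the transcript remained in every *Arid1a* cKO library. Counts from exons that Cre does not remove are included in this value. The labels number the libraries 1 to 4 within each genotype. Nothing states that they came from separate purifications, and p-values therefore measure only the spread between these samples.

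The 10 genes did not move as a block. Transcripts of *Acrv1*, *Spaca1*, *Spaca3*, *Spaca4* and *Spaca7* rose by 4.41 to 5.21-fold in *Arid1a* cKO. *Acr* and *Zpbp* rose by 1.23 and 1.34-fold, *Acrbp* fell, and *Zpbp2* and *Spata16* did not pass the test. In all, 7 of the 10 were called higher and 1 lower, beside 36.5% and 37.5% of all genes (6 higher and 3 lower with TPM totals set equal between libraries, an alternative chosen after the data were seen), and 5 were called at 2 or more log2 units higher, beside 8.82% of all genes. The CPM values of the genotypes did not overlap for 8 of the 10 genes, beside 68.9% of all genes. *Arid1a* cKO was the higher for 7 of them and the lower for 1, beside 34.0% and 34.9% of all genes. The median log2 fold change was 1.28 over the 10 genes and -0.02 over all genes tested.

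Markers of round and elongating spermatids rose over a range that overlapped that of the 5 genes with large rises and lay above the values of the other 5. The 11 spermatid markers examined, none of which is an acrosome gene, were all called higher in *Arid1a* cKO, by 1.79 to 2.28 log2 units, and their summed level was 2133 to 2355 CPM in the *Arid1a* WT libraries and 9719 to 9951 CPM in the *Arid1a* cKO libraries. That sum was 4.35-fold higher in *Arid1a* cKO, and no marker was at 0 in all libraries of either genotype. Its part in the results for the acrosome genes was not tested. In bulk RNA from such a fraction, a different number of cells of a type and a different amount of RNA per cell cannot be told apart. The 10 spermatocyte markers summed to 8932 to 10090 CPM in *Arid1a* WT and to 6809 to 7323 CPM in *Arid1a* cKO. Most of that sum came from *Ldhc*, at 3271 to 4246 CPM in *Arid1a* WT and 3153 to 3489 CPM in *Arid1a* cKO, and *Hspa2*, at 1856 to 2191 and 1658 to 1730 CPM. Of the 10, 7 were called lower and 3 higher. Lowest was *Piwil1*, which encodes a piRNA-binding protein of spermatocytes, at -3.88 (SE 0.05). It was at 1538 to 1642 CPM in *Arid1a* WT and 105.8 to 112.5 CPM in *Arid1a* cKO. *Sycp2* was at 849.9 to 1115 CPM in *Arid1a* WT and 296.8 to 344.2 CPM in *Arid1a* cKO, so the lower sum was not an even fall of all markers. The meiotic genes *Sycp2*, *Mybl1*, *Hormad1* and *Sycp3* were at -1.66, -1.30, -1.20 and -0.65. The 3 called higher were *Sycp1*, at 0.83, *Pgk2* and *Ccna1*. *Pgk2* had the largest rise of the 10, with 251.7 to 309.0 CPM in *Arid1a* WT and 756.8 to 832.5 CPM in *Arid1a* cKO. *Ccna1* was at 167.8 to 175.7 CPM in *Arid1a* WT and 186.4 to 199.2 CPM in *Arid1a* cKO. None of the 10 was at 0 in all libraries of either genotype. Summed markers of Sertoli cells were at 91.5 to 111.5 CPM in *Arid1a* WT and 32.99 to 37.05 CPM in *Arid1a* cKO, and those of Leydig cells at 56.6 to 60.3 and 8.11 to 8.61 CPM. Summed markers of macrophages were higher in *Arid1a* cKO, at 3.96 to 4.85 and 10.45 to 11.68 CPM with 5 of 6 called higher, as were those of peritubular cells, at 7.67 to 11.59 and 13.37 to 15.99 CPM with 3 of 3 called higher. Of 7 spermatogonia markers 6 were called higher and 1 lower, while their sum was 171.8 to 177.1 CPM in *Arid1a* WT and 145.4 to 152.9 CPM in *Arid1a* cKO. The lower sum came with *Id4* alone, at 86.3 to 93.2 CPM in *Arid1a* WT and 14.1 to 14.9 CPM in *Arid1a* cKO. The part of these cell types in the results was not tested.

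**Figure D1:**
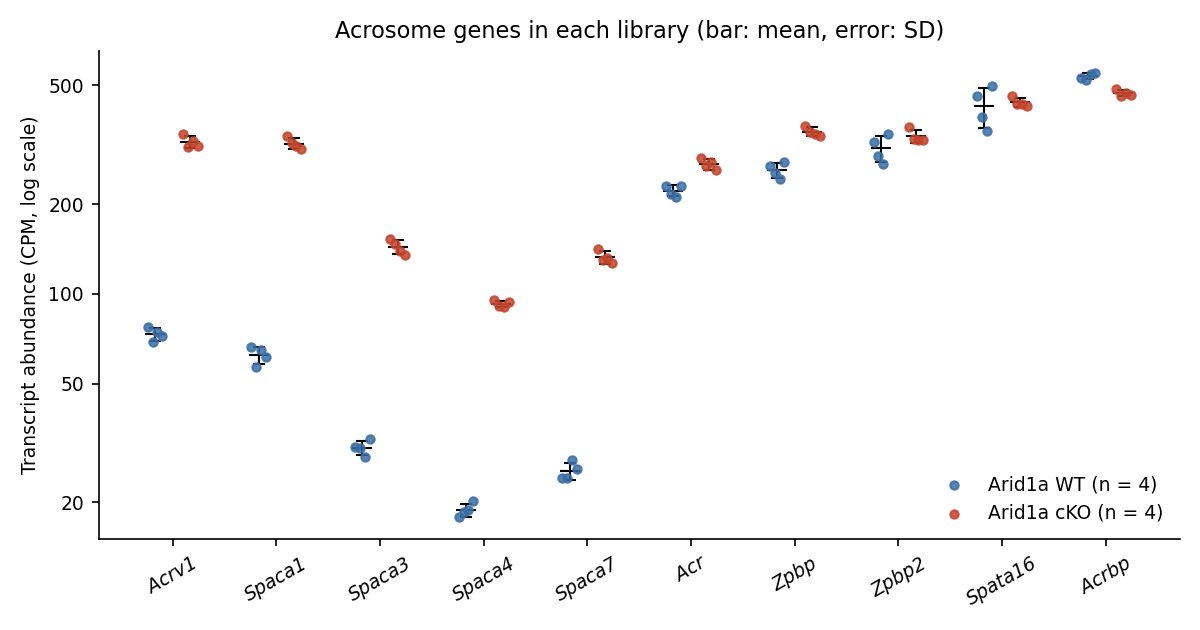
CPM (log axis) of each of the 10 acrosome genes in *Arid1a* WT (blue) and *Arid1a* cKO (red), 1 point per library, with a horizontal line for the mean and error bars for the SD of 4 libraries. The genotypes overlap for *Zpbp2* and *Spata16*, and *Acrbp* is the gene with all 4 *Arid1a* cKO libraries, at 462.2 to 487.1 CPM, under all 4 *Arid1a* WT libraries, at 523.4 to 550.7 CPM.

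The stretches of 100 bases just upstream of the annotated transcription start are shown for the 5 genes with large rises and for *Acrbp*, the 1 gene that fell, because these 6 genes mark the ends of the response. They are RefSeq sequences of GRCm38.p6, written 5′ to 3′ on the strand of the gene. Capitals mark matches to TGACG, the core of the cAMP response element bound by CREM in spermatids, and to GTTNCC, a core of the X-box bound by RFX factors, on the strand shown. The stretches lie at chr9:36693120-36693219 (plus strand) for *Acrv1*, chr4:34050066-34050165 (minus strand) for *Spaca1*, chr11:80858263-80858362 (plus strand) for *Spaca3*, chr7:45725817-45725916 (minus strand) for *Spaca4*, chr8:12572936-12573035 (plus strand) for *Spaca7* and chr6:125049827-125049926 (plus strand) for *Acrbp*. For *Spaca1* and *Spaca3*, each listed with 2 starts, the first listed was used.
Acrv1: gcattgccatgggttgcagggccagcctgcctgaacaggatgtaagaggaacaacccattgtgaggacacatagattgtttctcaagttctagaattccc
Spaca1: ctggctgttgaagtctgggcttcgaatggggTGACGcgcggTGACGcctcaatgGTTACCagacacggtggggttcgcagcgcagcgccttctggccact
Spaca3: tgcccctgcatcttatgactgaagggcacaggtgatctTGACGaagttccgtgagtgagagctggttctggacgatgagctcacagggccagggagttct
Spaca4: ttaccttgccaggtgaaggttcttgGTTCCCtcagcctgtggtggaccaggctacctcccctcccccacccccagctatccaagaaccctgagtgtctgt
Spaca7: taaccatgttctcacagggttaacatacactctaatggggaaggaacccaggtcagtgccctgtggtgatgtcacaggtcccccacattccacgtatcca
Acrbp: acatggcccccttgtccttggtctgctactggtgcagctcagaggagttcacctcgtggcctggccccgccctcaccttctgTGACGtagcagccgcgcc

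Among the matrix proteins, *Acrv1* (chr9:36693220-36698845) encodes acrosomal vesicle protein 1, also called SP-10, a classical marker of the early round spermatid acrosome. It was at 77.3, 69.0, 74.4 and 72.0 CPM in *Arid1a* WT replicates 1 to 4 and at 342.9, 309.7, 325.3 and 313.5 CPM in *Arid1a* cKO. Every *Arid1a* cKO library thus stood above every *Arid1a* WT library. The means were 73.2 ± 3.54 and 322.9 ± 14.9 CPM (SD, n = 4 each), a log2 fold change of 2.14 (SE 0.05, edgeR adjusted p = 1.077e-13).

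*Spaca3* (chr11:80858363-80867814) encodes a lysozyme-like protein of the acrosomal matrix. Its transcript was at 30.5, 30.4, 28.3 and 32.6 CPM in *Arid1a* WT and at 153.2, 146.4, 139.6 and 135.1 CPM in *Arid1a* cKO, again without overlap. The log2 fold change was 2.24 (SE 0.06, edgeR adjusted p = 1.47e-13). *Spaca7* (chr8:12573036-12600739) encodes an acrosomal protein released during the acrosome reaction. It was at 24.2, 24.2, 27.7 and 25.9 CPM in *Arid1a* WT and at 141.7, 130.0, 131.5 and 127.2 CPM in *Arid1a* cKO. With a log2 fold change of 2.38 (SE 0.06, edgeR adjusted p = 9.32e-14), *Spaca7* had the highest value of the 10 genes. Its interval of 2 SE on either side overlapped those of *Spaca1*, *Spaca3* and *Spaca4*, so their order is not resolved.

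Both genes for acrosomal membrane proteins were called higher. *Spaca1* (chr4:34024872-34050067) encodes a protein of the inner acrosomal membrane that is needed for normal acrosome shape. It was at 66.1, 56.9, 64.7 and 61.2 CPM in *Arid1a* WT and at 338.4, 319.6, 313.0 and 305.9 CPM in *Arid1a* cKO, a log2 fold change of 2.36 (SE 0.06, edgeR adjusted p = 8.915e-14). *Spaca4* (chr7:45725107-45725816) encodes a small GPI-anchored protein of the Ly6 family that takes part in binding to the zona pellucida. It was at 17.8, 18.5, 18.8 and 20.1 CPM in *Arid1a* WT and at 95.1, 91.0, 90.4 and 93.6 CPM in *Arid1a* cKO. The log2 fold change of *Spaca4* was 2.30 (SE 0.05, edgeR adjusted p = 6.052e-14). Both were without overlap between genotypes.

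*Acr* and *Acrbp* encode partners. *Acr* (chr15:89568326-89578853) encodes proacrosin, the zymogen of the trypsin-like protease acrosin, and *Acrbp* (chr6:125049927-125063265) encodes the proacrosin-binding protein that packages it in the matrix. *Acr* was at 230.5, 215.9, 212.0 and 229.1 CPM in *Arid1a* WT and at 284.9, 267.8, 276.4 and 259.4 CPM in *Arid1a* cKO. The groups did not overlap, and the log2 fold change was 0.29 (SE 0.05, edgeR adjusted p = 8.536e-05). With TPM totals set equal it was 0.05 and no longer passed (limma adjusted p = 0.2687). *Acrbp* was at 529.0, 523.4, 546.0 and 550.7 CPM in *Arid1a* WT and at 487.1, 462.2, 472.3 and 465.3 CPM in *Arid1a* cKO. It fell by 0.19 on the log2 scale (SE 0.05, edgeR adjusted p = 0.00178), and all 4 *Arid1a* cKO libraries were under all 4 *Arid1a* WT libraries. With TPM totals set equal *Acrbp* was at -0.47 (limma adjusted p = 6.079e-06).

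The 2 partners therefore changed in relation to each other. The log2 ratio of *Acrbp* to *Acr* CPM within a library was 1.199, 1.277, 1.365 and 1.265 in *Arid1a* WT and 0.77, 0.79, 0.77 and 0.84 in *Arid1a* cKO. A ratio within a library does not depend on its depth or scaling. The mean of this ratio differed by -0.48 between genotypes. The two-sided exact permutation test gave p = 0.02857 (also 0.02857 after adjustment over the 2 ratios tested). That is the lowest p that the 70 assignments of 4 against 4 libraries can give. How many other pairs of genes would reach it was not measured, and 68.9% of all genes did not overlap on CPM. The test therefore does not show a change particular to this pair.

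*Zpbp* and *Zpbp2* are paralogs whose products bind the zona pellucida and help compact the acrosomal matrix. *Zpbp* (chr11:11279624-11464223) was at 267.8, 253.7, 243.2 and 277.1 CPM in *Arid1a* WT and at 366.6, 350.3, 343.8 and 338.0 CPM in *Arid1a* cKO. It rose by 0.42 log2 units (SE 0.05, edgeR adjusted p = 4.008e-06), with no overlap. With TPM totals set equal the rise of *Zpbp* was 0.13 (limma adjusted p = 0.006097). *Zpbp2* (chr11:98551097-98558665) was at 324.3, 289.6, 273.5 and 342.8 CPM in *Arid1a* WT and at 362.6, 331.6, 327.2 and 328.2 CPM in *Arid1a* cKO. Of the *Arid1a* WT libraries, 3 were below every *Arid1a* cKO library, and replicate 4 was above 3 of the 4. The coefficient of variation in *Arid1a* WT was 10.3%. The log2 fold change was 0.13 (SE 0.07, edgeR adjusted p = 0.09481), and the interval of 2 SE on either side ran from -0.004 to 0.271. *Zpbp2* passed the test at 0.20 without *Arid1a* WT replicate 4 (edgeR adjusted p = 0.006675) and as higher under 3 other settings. It was at 0.08 without *Arid1a* WT replicate 3 (edgeR adjusted p = 0.2124), 0.037 without TMM and 0.027 with offsets for transcript length, and was called under none of these. With TPM in place of counts it was at -0.07 and not called, and with TPM totals set equal it was called lower, at -0.22 (limma adjusted p = 0.001177).

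The balance of the paralogs differed between genotypes. The log2 ratio of *Zpbp2* to *Zpbp* CPM was 0.28, 0.19, 0.17 and 0.31 in *Arid1a* WT and -0.02, -0.08, -0.07 and -0.04 in *Arid1a* cKO. All 4 *Arid1a* cKO libraries were below all 4 *Arid1a* WT libraries, and the means differed by -0.29 (p = 0.02857 in the same exact permutation test). The share of other gene pairs that separate in this way was not measured, and 68.9% of all genes did not overlap on CPM. A difference particular to the paralogs is therefore not shown.

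*Spata16* (chr3:26637620-26983249) encodes a Golgi protein needed to form the acrosome, and its loss in humans is linked to globozoospermia, in which sperm heads are round and lack an acrosome. It was at 460.6, 391.7, 352.2 and 497.2 CPM in *Arid1a* WT and at 460.1, 434.6, 433.6 and 426.9 CPM in *Arid1a* cKO. The *Arid1a* WT libraries reached both further down and further up, with a coefficient of variation of 15.4% against 3.33% in *Arid1a* cKO. The log2 fold change was 0.04 (SE 0.09, edgeR adjusted p = 0.6581), with an interval of 2 SE on either side from -0.13 to 0.22. A change as large as that of *Zpbp* lies outside that interval. The direction of *Spata16* turned under 5 settings, among them TPM in place of counts and leaving out *Arid1a* WT replicate 3. With TPM totals set equal it was called lower, at -0.23 (limma adjusted p = 0.01214).

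Levels were compared between genes on the TPM scale, which divides by transcript length. In *Arid1a* WT, *Acrbp* was highest at 740.8 ± 41.2 TPM (SD, n = 4), followed by *Zpbp2* at 370.0 ± 22.1, *Spata16* at 329.8 ± 39.5 and *Acr* at 280.3 ± 5.53 TPM. A step below came *Acrv1* at 106.5 ± 4.77, *Zpbp* at 91.5 ± 2.61 and *Spaca1* at 87.6 ± 5.99 TPM. *Spaca3*, *Spaca7* and *Spaca4* were lowest, at 65.4 ± 1.96, 61.2 ± 5.86 and 49.9 ± 2.82 TPM. The library ranges of neighbours overlapped for *Zpbp2* and *Spata16*, *Spata16* and *Acr*, *Zpbp* and *Spaca1*, and *Spaca3* and *Spaca7*, so their order is not resolved.

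In *Arid1a* cKO, *Acrbp* was still highest at 593.7 ± 15.2 TPM, but *Acrv1* at 427.6 ± 15.4 and *Spaca1* at 409.1 ± 13.5 TPM came next, with overlapping ranges. *Zpbp2* followed at 352.6 ± 12.7 TPM. *Acr* at 323.7 ± 17.1 and *Spata16* at 310.6 ± 6.96 TPM overlapped, as did *Spaca7* at 290.5 ± 9.36 and *Spaca3* at 280.4 ± 12.5 TPM. *Spaca4* at 224.1 ± 2.92 TPM stood apart, and *Zpbp* was lowest at 111.5 ± 2.97 TPM.

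The make-up of the acrosome transcripts differed accordingly. The summed level of the 10 genes was 2131 to 2254 TPM in *Arid1a* WT and 3238 to 3433 TPM in *Arid1a* cKO. The 5 genes with large rises, grouped after their values were seen, made up 16.2 to 18.0% of that sum in the *Arid1a* WT libraries and 48.7 to 49.5% in the *Arid1a* cKO libraries.

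**Figure D2:**
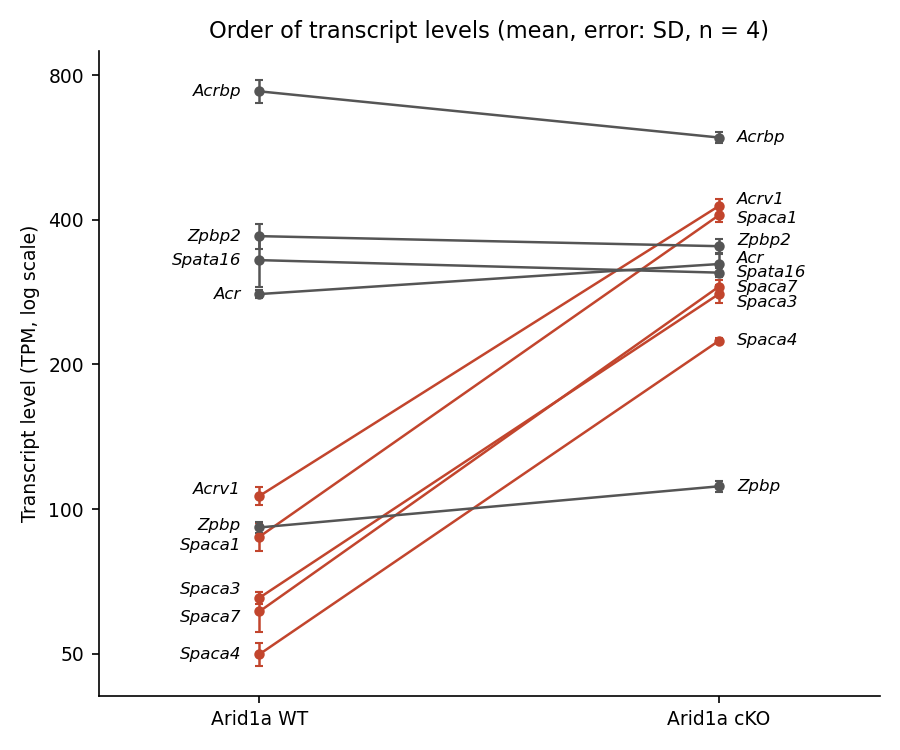
Mean TPM of the 10 acrosome genes in *Arid1a* WT (left) and *Arid1a* cKO (right), with error bars for the SD of 4 libraries, on a log axis, each gene joined by a line, red for the 5 genes with large rises and grey for the other 5. *Acrv1* and *Spaca1* pass *Zpbp2*, *Spata16* and *Acr* on the way from left to right. By its mean, *Zpbp* goes from sixth place, with a library range that overlaps that of *Spaca1*, to last.

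The levels were also set against the spermatid markers of the same library, as CPM of the gene per 100 CPM of summed markers. For *Acrv1* this value was 3.10 to 3.48 in *Arid1a* WT and 3.15 to 3.48 in *Arid1a* cKO, and for *Spaca3* it was 1.204 to 1.423 and 1.357 to 1.554, so both genes overlapped between genotypes on this scale. *Spaca1* was at 2.63 to 2.97 in *Arid1a* WT and at 3.07 to 3.43 in *Arid1a* cKO. *Spaca4* was at 0.80 to 0.87 and at 0.93 to 0.96, and *Spaca7* at 1.09 to 1.18 and at 1.28 to 1.44. These 3 genes did not overlap, with *Arid1a* cKO higher by 1.180, 1.131 and 1.198-fold in the mean. The other 5 genes were far lower per spermatid marker in *Arid1a* cKO. The summed markers were 4.35-fold higher in *Arid1a* cKO, so a gene with unchanged CPM would also be far lower on this scale. *Spata16*, for example, had a log2 fold change of only 0.04 in CPM. *Acrbp* was at 23.2 to 24.5 in *Arid1a* WT and at 4.68 to 4.94 in *Arid1a* cKO, and *Acr* at 9.002 to 10.37 and at 2.61 to 2.89. The ratio of the means was 0.20 for *Acrbp*, 0.28 for *Acr*, 0.31 for *Zpbp*, 0.25 for *Zpbp2* and 0.24 for *Spata16*. These values describe how the genes stood to the markers, and no test was made of them. The share of all genes without overlap on this scale is not given, so the number of non-overlapping genes here has no background. On CPM that share was 68.9%.

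**Figure D3:**
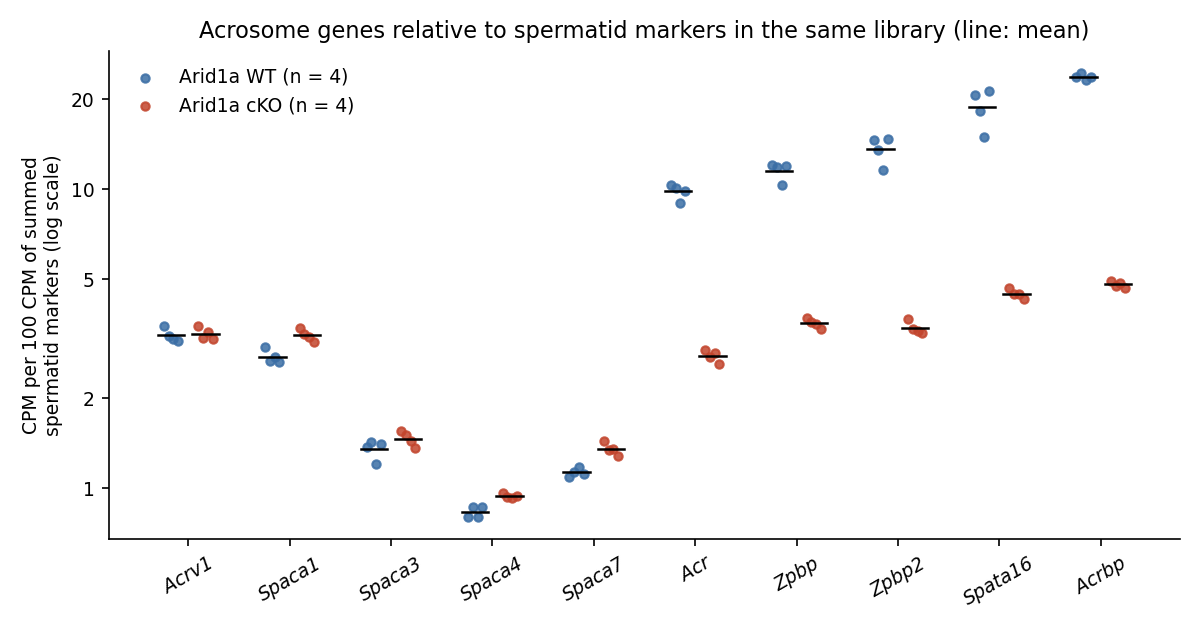
CPM of each acrosome gene per 100 CPM of 11 summed spermatid markers, 1 point per library (blue for *Arid1a* WT, red for *Arid1a* cKO) with a line for the mean, on a log axis. *Acrv1* and *Spaca3* overlap between genotypes, while *Acr*, *Acrbp*, *Zpbp*, *Zpbp2* and *Spata16* are lower in all 4 *Arid1a* cKO libraries.

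Other acrosome genes also ranged from falls to large rises. Of 20 further genes for matrix and membrane proteins, 19 were tested, and *Syt8* had 0 counts in every library. Of the 19, 16 were called higher and 2 lower, beside 36.5% and 37.5% of all genes, and *Pkdrej*, a polycystin family receptor of the sperm head, was not called (log2 fold change -0.03, SE 0.05). The smallest call was that of *Pcsk4*, a proprotein convertase gene, at 0.13 (SE 0.06, edgeR adjusted p = 0.04963), and 15 of the 19 were called higher under most alternatives. Their median log2 fold change was 1.99, and 9 were called at 2 or more log2 units, beside 8.82% of all genes. The largest rises were those of the hyaluronidase genes *Spam1* and *Hyal5* and of *Lyzl6*, a lysozyme-like gene. *Spam1* went from 29.3 ± 1.48 to 177.3 ± 8.62 CPM (SD, n = 4), *Hyal5* from 40.04 ± 1.039 to 217.7 ± 12.6 CPM, and *Lyzl6* from 28.3 ± 2.30 to 149.0 ± 6.96 CPM. Their log2 fold changes were 2.60 (SE 0.06), 2.44 (SE 0.05) and 2.40 (SE 0.06).

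The 2 genes that fell were among the most abundant of that list. *Spink2*, which encodes a serine protease inhibitor that acts on acrosin, went from a mean of 486.9 to 364.7 CPM, a log2 fold change of -0.42 (SE 0.05, edgeR adjusted p = 2.737e-06). The libraries were at 462.9 to 513.4 CPM in *Arid1a* WT and 349.7 to 378.3 CPM in *Arid1a* cKO. *Dkkl1*, which encodes a secreted acrosomal glycoprotein, went from 1004 ± 44.3 to 851.9 ± 23.5 CPM (log2 fold change -0.24, SE 0.05). With TPM totals set equal, *Spink2* was at -0.695 and *Dkkl1* at -0.54. *Acrbp* and *Spink2*, both of which act on proacrosin or acrosin, thus fell while *Acr* rose by a small amount on counts. With TPM totals set equal, *Acr* was at 0.05 and did not pass (limma adjusted p = 0.2687).

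Genes for the Golgi, vesicle transport, the acroplaxome and the perinuclear theca, which form and anchor the acrosome, were a second list of 23. Of these, 13 were called higher and 10 lower, beside 36.5% and 37.5% of all genes, with a median log2 fold change of 0.34 against -0.02 over all genes. The rises were led by 3 genes of the actin-related and cylicin proteins of the perinuclear theca. *Cylc1*, which is X-linked, went from 20.5 ± 1.46 to 147.5 ± 10.03 CPM (log2 fold change 2.85, SE 0.07), *Actrt1*, also X-linked, from 3.27 ± 0.31 to 21.4 ± 1.22 CPM (2.71, SE 0.09), and the autosomal *Cylc2* from 95.7 ± 4.86 to 541.8 ± 35.3 CPM (2.50, SE 0.06). The largest fall was that of *Gopc*, which encodes a Golgi-associated PDZ protein whose loss in mice prevents vesicle fusion into an acrosome. *Gopc* was at 80.1 to 87.2 CPM in *Arid1a* WT and 16.3 to 17.1 CPM in *Arid1a* cKO, a fall by 2.33 on the log2 scale (SE 0.05, edgeR adjusted p = 5.472e-14). *Vps54*, a subunit of a complex for retrograde transport to the Golgi, and *Golga3*, a golgin, fell by 0.61 each (SE 0.06 and 0.07).

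**Figure D4:**
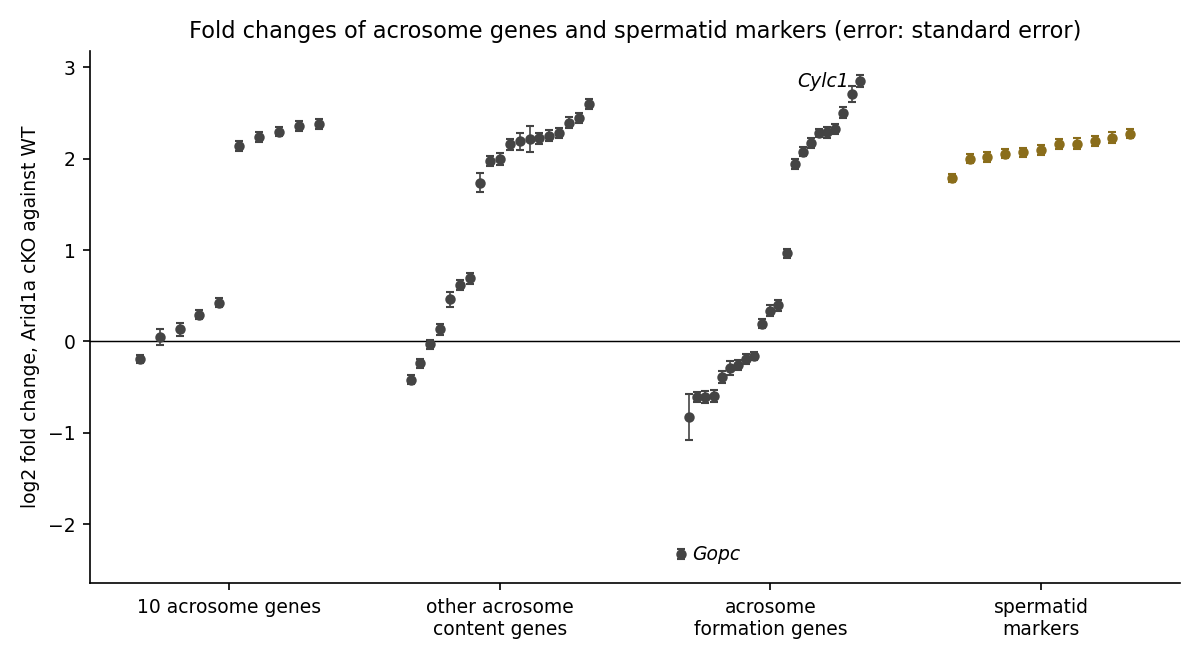
Log2 fold change of *Arid1a* cKO over *Arid1a* WT with its SE for the 10 acrosome genes, the other acrosome content genes, the acrosome formation genes and the 11 spermatid markers, each group sorted by value, 1 point per gene. Of the 10, 5 lie between 2.14 and 2.38 and 5 between -0.19 and 0.42, and all spermatid markers lie between 1.79 and 2.28.

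Across the 52 tested genes of the 3 lists, fold changes fell into 2 ranges, a pattern noticed after the values were seen and given as a description. The log2 fold change was 1.74 or more for 26 genes and 0.96 or less for the other 26, and 0 lay between 1.0 and 1.7, a range that held 9.29% of all genes tested. The upper range held 5 of the 10 acrosome genes described first, 12 of the matrix and membrane list and 9 of the formation list. In *Arid1a* WT the median level was 56.0 TPM in the upper range (2.59 to 135.8) and 132.7 TPM in the lower (2.64 to 2043). In *Arid1a* cKO the medians were 224.1 and 156.9 TPM.

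**Figure D5:**
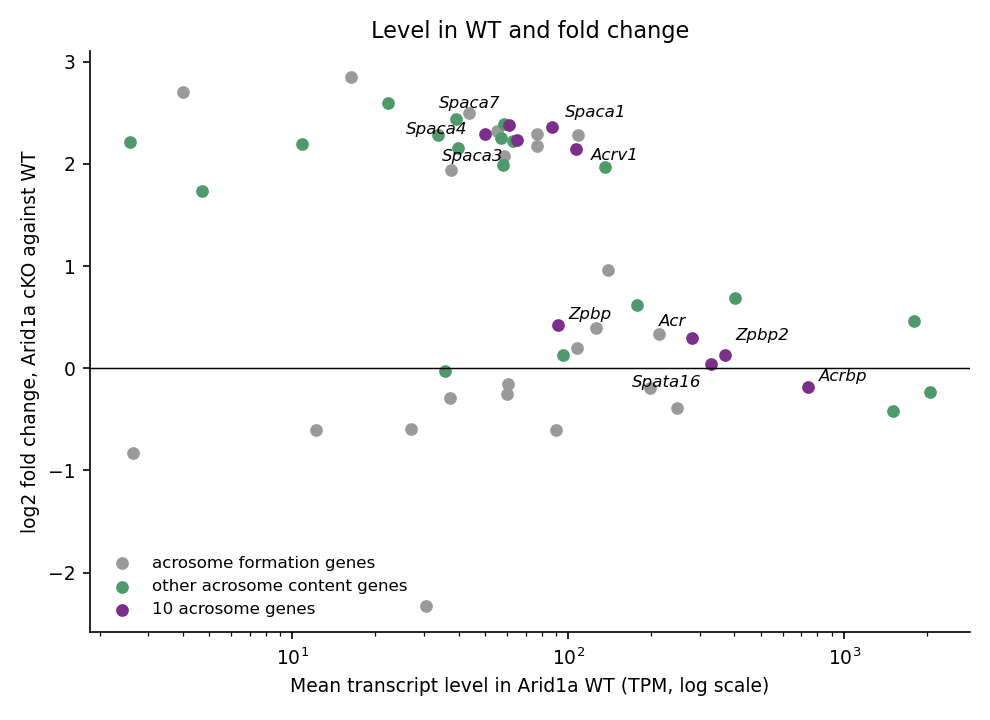
Log2 fold change of *Arid1a* cKO over *Arid1a* WT against mean TPM in *Arid1a* WT (log axis) for the 52 tested genes, with the 10 acrosome genes in purple and named, other acrosome content genes in green and formation genes in grey. The 2 axes share the *Arid1a* WT libraries. No gene lies between 1.0 and 1.7, and the genes with the highest *Arid1a* WT levels, up to 2043 TPM, lie in the lower range.

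Transcript use within the genes was read from the count divided by TPM, which is proportional to the mean length of the transcripts assigned to a gene. Relative to the median of all genes in a library, this length was greater in every *Arid1a* cKO library for 9 of the 10 genes. Over 10850 genes, 53.3% did not overlap between genotypes, a share that counts both directions. Under that centring, however, 951 genes with a single annotated transcript, which cannot change isoform, were longer in *Arid1a* cKO by a median of 0.07 log2 units. Centred on those genes, a choice made after the data were seen, 2 of the 10 genes did not overlap, beside 31.8% of all genes. *Zpbp2* was 4.85% longer in *Arid1a* cKO and *Zpbp*, with 1 annotated transcript, 0.30% longer. A difference as large as that of *Zpbp2* was found for 41.0% of genes. *Acr* differed by -3.37% with overlapping values, and the other 7 were within 0.57% of equal. For the 5 genes with large rises, differences in transcript length were far smaller than the level changes. For *Zpbp2*, the length difference was 0.068 log2 units beside a level change of 0.13.

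Genes next to the 10 on the chromosome were described in the same way. Of the 20 nearest tested neighbours on either side, 8 were called higher, 4 lower and 8 not called, beside 36.5% higher and 37.5% lower over all genes. Their median log2 fold change was 0.13, and 2 of the 20 rose by 2 or more log2 units, beside 8.82% of all genes called at that size. The neighbours of *Spaca1*, *Cnr1* and *Akirin2*, were at 0.10 (SE 0.22) and 0.48 (SE 0.06), and those of *Spaca7*, *Sox1* and *Tubgcp3*, at -0.25 (SE 0.12) and 0.15 (SE 0.08). Next to *Acrbp*, *Ing4*, a chromatin reader gene that lies 662 bp away, went from 20.6 to 5.32 CPM (log2 fold change -1.95, SE 0.09), and *Chd4*, a chromatin remodeler gene on the other side, was at -0.61 (SE 0.05). Next to *Acrv1*, *Pate14* rose by 2.17 (SE 0.21) and the checkpoint kinase gene *Chek1* by 1.44 (SE 0.09). Next to *Zpbp*, *Vwc2* rose by 2.81 (SE 0.78) (0.036 CPM in *Arid1a* WT and 0.286 CPM in *Arid1a* cKO), and *4930512M02Rik* by 1.85 (SE 0.20). *Shank3* and *Rabl2*, next to *Acr*, were at -0.37 (SE 0.15) and 1.345 (SE 0.05), and *Tmem98* and *Asic2*, next to *Spaca3*, at -0.86 (SE 0.17) and -0.30 (SE 0.48). The other pairs were *Rpl18* and *Sult2b1* next to *Spaca4*, at 0.11 (SE 0.07) and 0.79 (SE 0.37), *Ikzf3* and *Ormdl3* next to *Zpbp2*, at -0.53 (SE 0.49) and 0.19 (SE 0.06), and *Nlgn1* and *Ect2* next to *Spata16*, at 1.25 (SE 0.37) and 0.00029 (SE 0.05).

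For 2 of the 10 genes the annotation overlaps another tested gene that rose. *Fam83e*, which overlaps *Spaca4*, went from 16.6 to 77.9 CPM (log2 fold change 2.23, SE 0.06), and *Spata48*, which overlaps *Zpbp*, from 17.5 to 90.8 CPM (2.38, SE 0.06). *Spaca4* and *Fam83e* share no run of 31 bases in annotated transcripts. *Zpbp* shares 4.60% of its 31-base runs with *Spata48*, so some of its reads could be assigned to either gene. *Acrbp* shares 29.8% of its runs, and *Spaca7* 10.2%, with transcripts of genes that the count table does not list. *Acrv1* shares 1.76%, and the other 6 genes share none. How many reads of *Acrbp*, *Spaca7* or *Zpbp* were assigned elsewhere was not measured.

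The promoters of 9 of the 10 genes, all but *Acr*, were matched in RefSeq and searched on both strands over 300 bases, from 250 upstream to 50 downstream of the start. TGACG occurred in the windows of *Spaca1*, where 2 copies lie 69 and 59 bases upstream, *Spaca3* (62 bases), *Acrbp* (18 bases) and *Zpbp2* (147 bases, minus strand), and in 20.8% of 32851 promoter windows. The full palindrome TGACGTCA, which contains TGACG, was in 0 of the 9 and in 1.79% of all windows. GTTNCC was found in 7 of the 9, and in 45.3% of all windows. TATAAA was found for *Spaca7* only, on the minus strand, and in 13.6% of all windows. The matches divide neither the 5 genes with large rises from the rest nor *Acrbp*, which fell, from *Spaca1*, which rose. The number of CpG dinucleotides per window ranged from 1 for *Acrv1* and *Spaca7* to 26 for *Zpbp2*, with a median of 7 over all windows. The genes with large rises had 1, 1, 5, 7 and 16, and *Zpbp*, *Spata16*, *Acrbp* and *Zpbp2* had 7, 9, 17 and 26.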

How the data were processed

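The mRNA libraries, 4 per genotype, were made from cell fractions that Sta-Put had enriched for pachytene spermatocytes. They were grouped by the genotype in their labels, and 0 columns of per-sample values were left unused. The authors quantified reads with Salmon on mm10 and used tximport to collapse transcripts to Entrez genes. Versions are not given in the sources used here. The authors deposited estimated counts per gene, not scaled for depth or transcript length, and TPM. Their table of fold changes, standard errors and p-values from DESeq2 was not used.

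Estimated counts were rounded before testing, where the planned test had assumed integer counts. The 17643 genes with at least 10 counts over the 8 libraries were tested in edgeR 4.0.16 (R 4.3.3) with TMM normalization, glmQLFit and glmQLFTest, and genotype as the only factor. The SE was taken as the absolute log2 fold change over the root of F. The common biological coefficient of variation was 0.07. On simulated counts for 17302 genes, edgeR recovered 85.4% of 198 genes changed 2-fold, and 3.98% of its calls were unchanged genes. So few genes were changed there, whereas 74.0% of tested genes were called in the data. The simulation therefore does not give the error rate of the calls made here. Replicates differed by more than counting noise, with a chi-square per degree of freedom of 4.38 to 18.0 between *Arid1a* WT and 1.71 to 3.45 between *Arid1a* cKO libraries, and all were kept. Libraries held 15850961 to 22044507 counts, and listed genes summed to 780735 to 811443 TPM in *Arid1a* WT and 880901 to 886412 TPM in *Arid1a* cKO.

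The alternatives were DESeq2 1.42.0, library size without TMM, DESeq2 size factors, autosomal TMM factors, filterByExpr, a minimum of 10 counts in each library, a minimum of 1 count in all, limma 3.58.1 on log2(TPM + 1) and log2(TPM + 0.1), length offsets, a replicate block, an adjusted p of 0.01 and each library left out. Length centring on single-transcript genes and equal TPM totals were added after seeing the data.

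The 10 genes, the gene lists and the tests were chosen with earlier results of these data known. Named genes were the 10, *Arid1a*, in each acrosome list the 3 largest rises and falls among called genes (average log2 CPM at or above 1), and the nearest or overlapping genes tested. *Pkdrej*, *Pcsk4*, *Syt8* and single cell type markers were named after their values were seen. Coordinates and promoters are from RefSeq on GRCm38.p6, which had records for 21036 of 21058 genes, and 31-base runs and transcript numbers from GENCODE M21. Ratios and lengths were summarised in Python 3.11.15. The other assays of the study were not analysed here.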

Additional observations from a re-analysis of the deposited data

Results flagged for a closer look

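Over 25 measures in both genotypes, the 50 groups of 4 libraries were searched for an extreme library, by Dixon's ratio of the gap to its nearest neighbour over the whole range. Chance alone would give about 2.5 such groups, and 5 were found, all in *Arid1a* cKO replicate 1. *Zpbp2* was high in that library, at 362.6 CPM against 327.2 to 331.6 CPM in the other *Arid1a* cKO libraries (0.88 of the range). *Dkkl1* was high at 887.0 CPM against 838.1 to 843.9, *Hyal5* at 236.4 CPM against 209.4 to 212.5, and *Lyzl6* at 159.4 CPM against 144.9 to 146.8. *Gopc* was low at 16.25 CPM against 17.01 to 17.13. These departures were small beside the differences between genotypes for *Gopc*, *Hyal5* and *Lyzl6*, and for *Zpbp2* the library was the highest of all 8.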

How the results depend on the processing

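*Acrv1*, *Spaca1*, *Spaca3*, *Spaca4*, *Spaca7* and *Zpbp* were called higher, and *Acrbp* lower, under each of 20 alternative settings. The 5 genes with large rises ranged from 1.85 to 2.42, *Zpbp* from 0.13 to 0.47, *Acrbp* from -0.47 to -0.15 and *Acr* from 0.05 to 0.33. TPM in place of counts moved the median of all genes by -0.11, and equal TPM totals by -0.25. Of all calls 49.3% were higher on counts, 45.3% on log2(TPM + 1) and 39.0% with equal TPM totals. With equal totals, 3 of the 10 genes were called lower (*Acrbp*, *Zpbp2* and *Spata16*), and *Acr* was at 0.05 (limma adjusted p = 0.2687).

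*Zpbp2* turned to -0.068 on log2(TPM + 1) and on log2(TPM + 0.1) (limma adjusted p = 0.2392 and 0.2351), and to -0.22 with equal TPM totals (0.001177). It was called higher at 0.17 with autosomal TMM factors, 0.16 with filterByExpr, 0.17 with at least 10 counts in every library and 0.20 without *Arid1a* WT replicate 4. *Spata16* turned to -0.05 without TMM, -0.079 on both TPM scales, -0.23 with equal TPM totals (limma adjusted p = 0.01214) and -0.036 without *Arid1a* WT replicate 3, within a range of -0.036 to 0.142 over the libraries left out. Both genes lie near 0 and had the widest spread among *Arid1a* WT libraries. The causes were not tested.

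With 1 library left out, the difference in log2 ratio ranged from -0.51 to -0.45 for *Acrbp* to *Acr* and from -0.31 to -0.26 for *Zpbp2* to *Zpbp*, with an exact p of 0.05714, the smallest that 3 against 4 libraries allow. The count of genes with a shifted transcript length was 0 with no centring and 2 centred on single-transcript genes. Same-numbered libraries shared only a number, with correlations of 0.03, 0.03, 0.04 and -0.03 between their deviations, and 2 of the 4 correlated best with their own number. With the replicate number as a block, 13100 genes were called instead of 13048, with 7 higher and 1 lower of the 10. The ratio differences were then -0.48 and -0.29 with an exact sign-flip p of 0.125, the smallest that 4 pairs allow. The lowest count of the 10 genes in any library was 360 (*Spaca4*, *Arid1a* WT replicate 1).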
